A study of Mus musculus and Homo sapiens with 18 samples.

Results

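The clustered protocadherins are cell-surface adhesion proteins encoded by 3 neighbouring gene clusters, alpha, beta and gamma, and their messenger RNA was compared between cells with and without the RNA-binding protein Qki. Members were every gene of the count tables whose symbol starts with Pcdha, Pcdhb or Pcdhg followed by a letter or a number, in upper case for human, with pseudogene and antisense rows left out. The mouse lens table held 55 members among 46882 genes (13 alpha, 22 beta and 20 gamma). The table of NLPCs, mouse cells made from neural stem cells to resemble lens progenitors, held 57 among 54838 (14, 22 and 21), and that of the human lens epithelial cell line HLE-B3 held 53 among 60880 (15, 16 and 22). Left out were 1, 1 and 6 rows, among them Pcdhgb8 in mouse and PCDHB17P, PCDHB18P, PCDHB19P, PCDHA14, PCDHGB8P and PCDHGB9P in human.

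Total RNA was sequenced in 18 libraries, 3 in each of 6 groups. Lenses came from mice at P17-19 given tamoxifen, either Nestin-CreERT2;QkL/+ controls (Ctrl) or Nestin-CreERT2;QkL/L mice (Qk-iCKO), so that the controls also carried the Cre and 1 floxed allele, and the Cre is driven by the Nestin promoter rather than by a lens gene. NLPCs were grown from neural stem cells of Nestin-CreERT2;QkL/L mice with Noggin and then bFGF, BMP4 and BMP7, and their libraries are labelled wild type (WT) or Qk-/-, a deletion made with 4-hydroxytamoxifen. What the WT NLPCs received in place of 4-hydroxytamoxifen is not stated, so the treatment and the deletion cannot be told apart. HLE-B3 cells were wild type (WT) or carried a QKI knockout (QKI KO) made with CRISPR-Cas9 delivered by lentivirus, and puromycin-selected cells were used without a statement that they were 1 clone. The labels do not say whether the 3 libraries of a cell group came from separate cultures, while the study states in general that its animal and cell line work used independent biological replicates, so p-values measure the spread between these libraries.

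A clustered protocadherin gene is read from 1 of many promoters, each in front of its own large first exon. In the alpha and gamma clusters that variable exon is spliced to constant exons shared by the whole cluster, while each beta gene stands alone. The promoters carry a conserved element around the letters CGCT and sites for the insulator protein CTCF, and the choice among them, kept by DNA methylation and cohesin-dependent looping, gives single neurons an adhesive identity. The C-type members, 2 at the end of the alpha cluster and 3 at the end of the gamma cluster, are chosen differently from the others and are used more broadly. The best-studied roles are in self-avoidance of neurites, in neuronal survival and in contacts between astrocytes and neurons.

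Human promoters of members described further on are shown first, because gene identity here rests on promoter choice. They lie on the plus strand of chromosome 5 in GRCh37, and each line gives 24 bases around the CGCT letters, which are in capitals. The first 5 belong to gamma genes that fell in QKI KO cells, the next 3 to gamma genes that did not pass the test, and the last 2 to beta genes, of which PCDHB13 fell.
PCDHGA4 (chr5:140734535-140734558): ctgggtgtCGCTgttcaccaatca
PCDHGB5 (chr5:140777438-140777461): ctgggcgcCGCTgttggccaaagt
PCDHGA9 (chr5:140782289-140782312): ctgagcgcCGCTgttgatcaactc
PCDHGA11 (chr5:140800547-140800570): ctaggcgcCGCTgctcaccaatca
PCDHGC3 (chr5:140855455-140855478): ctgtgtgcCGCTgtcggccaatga
PCDHGA1 (chr5:140709978-140710001): gtgggcgcCGCTgttcactaatct
PCDHGB4 (chr5:140767192-140767215): ctgggcgcCGCTgttggccaaagt
PCDHGA10 (chr5:140792506-140792529): ctgagcgcCGCTgttcacctacta
PCDHB13 (chr5:140593445-140593468): cgtggtggCGCTgcaggataagaa
PCDHB16 (chr5:140561893-140561916): cgtggtggCGCTgcaggttaagat
The printed stretches of PCDHGB4 and PCDHGB5 were identical over all 24 bases, and PCDHGB5 is a gene that fell while PCDHGB4 is one that did not pass the test. The mean of PCDHGB4 was lower too, but unevenly between libraries, as given further on. In the 400 bases before the first start codon, the motif GNCGCTNT was found on the coding strand of 12 of 15 alpha, 1 of 16 beta and 19 of 22 gamma genes, against 62 of 827 other protein-coding genes of chromosome 5 (7.5%). The shorter motif GNCGCT, which is contained in the longer one, was in 14 of 15, 15 of 16 and 20 of 22, against 281 of 827 (34%). With either strand counted, the shares of the 827 other genes were 15.6 and 49.9% and those of the clusters did not change. Of the gamma genes, 8 of 11 that fell and 11 of 11 that did not pass the test carried GNCGCTNT. Neither motif was found in the windows of PCDHGB7, which fell, and PCDHGC5, which fell most.

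Library totals were 10319320 to 16425331 counts in the lens, 28154202 to 68243360 in NLPCs and 69190864 to 81384471 in HLE-B3. All levels are given as CPM, read counts over the TMM-scaled library size, all differences are log2 fold changes of deleted over control ± SE, and a gene was called at an adjusted p under 0.05 over all genes tested. The Qk level was 121.1 ± 5.67 CPM (SD, n = 3) in controls and 97.7 ± 9.74 CPM in Qk-iCKO mice (adjusted p = 0.200), and 2553 ± 116 CPM in WT NLPCs and 3399 ± 273 CPM in the libraries labelled Qk-/- (log2 fold change 0.41, adjusted p = 0.0270). QKI fell from 261 ± 3.42 to 102.7 ± 2.54 CPM in HLE-B3 (log2 fold change −1.34 ± 0.05 SE, adjusted p = 1.852e-11). These counts cover the whole gene and not the floxed exon, so in mouse they do not check the deletion. In NLPCs the gene's counts went against the label. The deletion was checked at the protein level in the paper. It reports near-complete loss of a mostly nuclear Qki isoform from recombined lens cells, while another isoform fell less. In neural stem cells and NLPCs it reports that Qki staining was abolished, and it shows an immunoblot of NLPCs. Whether the sequenced samples themselves were checked in this way is not stated. Lens genes were detected in the lens as labelled, where 14 of them summed to 188710 to 406400 CPM, but NLPCs reached 129 to 192 with 5 of 14 abundant enough to test, and HLE-B3 reached 491 to 1020 with 6 of 14. Qk-iCKO lens 1 stood apart by its scaling factor of 1.478 against 0.888 to 0.9616 in the other 5 lenses.

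The 3 systems used the clusters at very different levels. Summed over their members, the beta cluster reached 19.8, 20.2 and 23.7 CPM in the 3 Ctrl lenses, 839, 697 and 768 CPM in WT NLPCs, and 7.43, 7.35 and 7.65 CPM in WT HLE-B3 cells. The gamma cluster reached 24.4, 19.4 and 17.6 CPM in Ctrl lenses, 545, 400.2 and 539 CPM in WT NLPCs, and 78.0, 84.7 and 97.0 CPM in WT HLE-B3 cells. The alpha cluster was the lowest everywhere, with 4.23, 3.78 and 2.196 CPM in Ctrl lenses, 23.4, 15.8 and 21.0 CPM in WT NLPCs, and at most 0.165 CPM in any HLE-B3 library. The tables were counted and scaled apart, so these levels are set side by side without a test. Counts were found for 53 of 55 members in the lens, 56 of 57 in NLPCs and 41 of 53 in HLE-B3. Enough counts for a test were found for 25 lens members (1 alpha, 12 beta and 12 gamma), 54 NLPC members (12, 21 and 21) and 30 HLE-B3 members (0, 8 and 22). The untested members had at most 26 counts in any lens library, 23 in any NLPC library and 36 in any HLE-B3 library.

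Levels of different genes were compared per kilobase of exon that no other annotated gene shares. On that scale a C-type gene led the alpha and the gamma cluster in the control groups of both mouse systems. Pcdhgc3, a C-type gamma gene, had 2.00 ± 0.31 CPM per kilobase in Ctrl lenses (SD, n = 3), followed by Pcdhga10 with 0.58 ± 0.29, and its level in WT NLPCs was 112.7 ± 16.5 CPM per kilobase, followed by Pcdhgb4 with 11.6 ± 1.68. Pcdhac2, the last alpha gene, had 0.97 ± 0.34 CPM per kilobase in Ctrl lenses and 1.84 ± 0.22 in WT NLPCs. The beta genes were more even, with Pcdhb22 at 0.51 ± 0.17 CPM per kilobase and Pcdhb17 at 0.41 ± 0.13 in Ctrl lenses, and with Pcdhb9 at 19.6 ± 1.05, Pcdhb11 at 18.2 ± 1.30 and Pcdhb16 at 17.5 ± 2.00 in WT NLPCs. In both mouse systems these leading beta genes differed from their neighbours in rank by less than the sum of their SDs. In WT HLE-B3 cells the order of the gamma cluster was PCDHGA11 at 5.26 ± 0.44, PCDHGB5 at 4.71 ± 0.10 and PCDHGC3 at 4.00 ± 1.05 CPM per kilobase. Reads on constant exons may be assigned to any gene of a cluster or to none, which the sources used here do not state.

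In the lens the question was whether deletion of Qk in the animal changed these genes. Pcdhb7 (chr18:37341702-37345202 in GRCm38) and Pcdhb17 (chr18:37484795-37489454), beta genes for homophilic adhesion proteins, rose, and no member fell. Pcdhb17 had 1.24, 2.14 and 2.40 CPM in Ctrl and 5.65, 5.13 and 4.85 CPM in Qk-iCKO lenses. Every Qk-iCKO lens lay above every Ctrl lens, and the log2 fold change was 1.42 ± 0.28 (2.68-fold, adjusted p = 0.0185) on 80 against 193 reads in all. Pcdhb7 had 1.08, 0.57 and 0.892 CPM in Ctrl and 3.01, 2.13 and 2.73 CPM in Qk-iCKO lenses, again without overlap, and its log2 fold change was 1.63 ± 0.34 (3.10-fold, adjusted p = 0.0211) on 34 against 98 reads. The 2 called are among 12 beta genes tested, where 8.38% of all genes tested were called higher and 3.88% lower, 12.3% in all. At an unadjusted p under 0.05, 3 beta and 3 gamma genes were higher and no member lower, beside 17.3 and 11.4% of all genes, and DESeq2 called the same 2 beta genes and no other member. Without Ctrl lens 1 or Ctrl lens 2 neither was called, and without Ctrl lens 3 or Qk-iCKO lens 1 only Pcdhb17 was, with adjusted p values over all settings of 0.00185 to 0.0617 for Pcdhb17 and 0.00978 to 0.0803 for Pcdhb7.

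**Figure D1:**
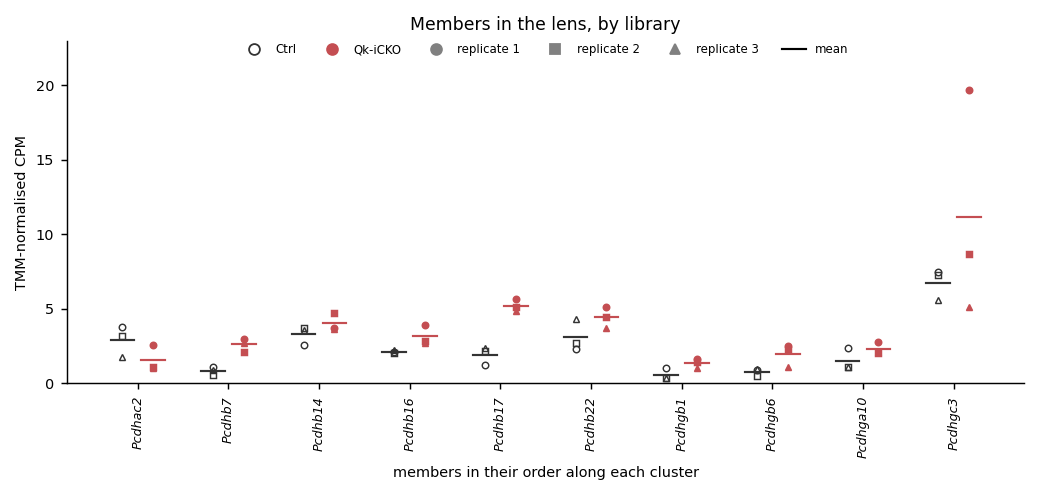
Levels in CPM of named members in each of the 3 Ctrl and 3 Qk-iCKO lenses, with a point for each lens and a short line at each group mean. Genes run in their order along the clusters. Pcdhb7 and Pcdhb17 do not overlap between the groups, while Pcdhgc3 is spread from 5.15 to 19.7 CPM among Qk-iCKO lenses.

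The other lens members did not pass the test. The beta cluster summed to 41.7, 38.2 and 30.0 CPM in Qk-iCKO lenses, all above the 3 Ctrl sums. All 12 tested beta genes had a log2 fold change above 0, with a median of 0.59, and 6 of the 12 had Qk-iCKO lenses all above Ctrl lenses, against 18.2% of all genes tested, while no tested member had them all below, against 17.1%. The median over all 12201 genes tested was 0.01. These counts describe the tested members alone, since a gene could enter the test through the group in which it was higher. Pcdhb22, the highest beta gene per kilobase in Ctrl lenses, had 2.32, 2.71 and 4.32 CPM in Ctrl and 5.09, 4.45 and 3.74 CPM in Qk-iCKO lenses, which overlap (0.51 ± 0.29, adjusted p = 0.298). Pcdhb14, the highest beta gene in CPM in Ctrl lenses, had 2.57, 3.71 and 3.57 CPM in Ctrl lenses. In Qk-iCKO lenses it had 3.74, 4.74 and 3.63 CPM, with overlap (0.29 ± 0.24, adjusted p = 0.474).

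Among the gamma genes of the lens 10 of 12 tested lay above 0, with a median log2 fold change of 0.68. In 3 of 12 the Qk-iCKO lenses were all above the Ctrl lenses, near the 18.2% of all genes tested. Pcdhgc3, the highest member of the lens, had 7.46, 7.27 and 5.56 CPM in Ctrl and 19.7, 8.71 and 5.15 CPM in Qk-iCKO lenses. Only Qk-iCKO lens 1 was far above the Ctrl lenses, and the log2 fold change of 0.75 ± 0.45 (adjusted p = 0.316) was 0.04 without it. The largest differences among the other gamma genes, singled out after their values were seen, were those of Pcdhgb1 (1.32 ± 0.49, adjusted p = 0.128) and Pcdhgb6 (1.31 ± 0.43, adjusted p = 0.0913). Pcdhac2, the single alpha gene tested, had 3.81, 3.21 and 1.78 CPM in Ctrl and 2.58, 1.06 and 1.01 CPM in Qk-iCKO lenses, with overlap (−0.87 ± 0.46, adjusted p = 0.264). Qk-iCKO lens 1 was the highest library in 17 of the 25 tested members, and without it the median was 0.54 over 12 beta genes, 11 of them above 0, and 0.46 over 13 gamma genes, 9 of them above 0. Without Qk-iCKO lens 3 the beta median was 1.0016 over 16 genes tested, all above 0. Scaling to total counts alone raised the median of all genes to 0.29, beside 0.89 for the beta and 1.03 for the gamma genes.

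Markers of other cell types moved with the groups in the lens. The 6 macrophage markers summed to 1.57 to 3.16 CPM in Ctrl and 61.0 to 75.8 CPM in Qk-iCKO lenses. Of them 5 of the 5 tested rose, where 8.38% of all genes tested were called higher and 3.88% lower. The 5 endothelial markers summed to 4.31 to 8.58 CPM in Ctrl and 13.6 to 23.7 CPM in Qk-iCKO lenses, and 2 of 5 rose. Of those tested, 1 of 5 neuron, 1 of 3 neural stem cell, 1 of 2 oligodendrocyte and 1 of 3 mesenchyme markers rose. None of the 5 astrocyte markers tested was called. The lens markers summed to 385040 to 406400 CPM in Ctrl and 188710 to 342640 CPM in Qk-iCKO lenses, lowest in Qk-iCKO lens 1 and without overlap, and 12 of 13 tested lay below 0, of which 1 was called. The photoreceptor markers ranged from 2.13 to 589 CPM among Ctrl and from 13.7 to 87.0 CPM among Qk-iCKO lenses. Their part in the beta and gamma values was not tested, and in a whole lens fewer cells of a type and less RNA per cell cannot be told apart.

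In NLPCs 1 run of neighbouring beta genes was lower in the libraries labelled Qk-/-, while the rest of the beta cluster did not pass the test. Of the 21 beta genes tested 7 fell and none rose, where 5.96% of all genes tested were called lower and 4.74% higher, 10.7% in all. At an unadjusted p under 0.05, 8 beta genes were lower and 1 higher, beside 14.0 and 12.4% of all genes, and in DESeq2 the higher one, Pcdhb16, was called too (adjusted p = 0.0344). The 7 were Pcdhb2 and Pcdhb4 to Pcdhb9. With Pcdhb3 they make up the unbroken stretch from Pcdhb2 to Pcdhb9, at chr18:37294812-37403909 in GRCm38, and the next gene, Pcdhb10, starts at 37411664. This stretch was marked out after the values were seen.

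The highest of the 8 was Pcdhb9, with 62.5, 60.7 and 56.3 CPM in WT and 36.0, 31.7 and 38.7 CPM in the libraries labelled Qk-/- (−0.75 ± 0.11, adjusted p = 0.00471). Pcdhb8 had 36.3, 41.1 and 39.5 CPM in WT and 24.5, 20.9 and 22.0 CPM in the deleted group (−0.79 ± 0.11, adjusted p = 0.00458). Pcdhb7 had 19.7, 21.1 and 19.0 CPM against 12.4, 9.16 and 12.7 CPM (−0.80 ± 0.15, adjusted p = 0.0147). In each of the 3 the lowest WT library stayed above the highest library labelled Qk-/-. Pcdhb6 had 14.8, 18.8 and 15.6 CPM in WT and 10.7, 8.61 and 9.31 CPM in the deleted group (−0.78 ± 0.15, adjusted p = 0.0157). Pcdhb5, with the smallest adjusted p of the stretch, had 19.5, 18.5 and 15.3 CPM in WT and 7.46, 8.75 and 7.99 CPM in the deleted group (−1.14 ± 0.14, adjusted p = 0.00263). Pcdhb4 had 15.9, 17.0 and 15.9 CPM against 9.99, 8.78 and 8.77 CPM (−0.82 ± 0.12, adjusted p = 0.00532). These 3 genes, like the ones before, did not overlap between groups, where 19.3% of all genes tested had the deleted group below. At the start of the stretch, Pcdhb2 had 11.6, 10.4 and 10.5 CPM in WT and 4.49, 6.66 and 3.15 CPM in the deleted group, the largest fall of the cluster (−1.19 ± 0.26, adjusted p = 0.0261). Pcdhb3 had 7.88, 7.63 and 7.20 CPM in WT and 3.03, 5.47 and 2.85 CPM in the deleted group, without overlap but short of the threshold (−1.01 ± 0.27, adjusted p = 0.0509).

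Pcdhb4, Pcdhb5, Pcdhb8 and Pcdhb9 were called in 13 of 13 settings, Pcdhb2, Pcdhb6 and Pcdhb7 in 9 and Pcdhb3 in 4. Without any single WT library 4 beta genes were called. With the replicate number as a block, 8 were called, since Pcdhb3 passed as well (−1.07, adjusted p = 0.0482, and 0.000521 to 0.166 over all settings).

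**Figure D2:**
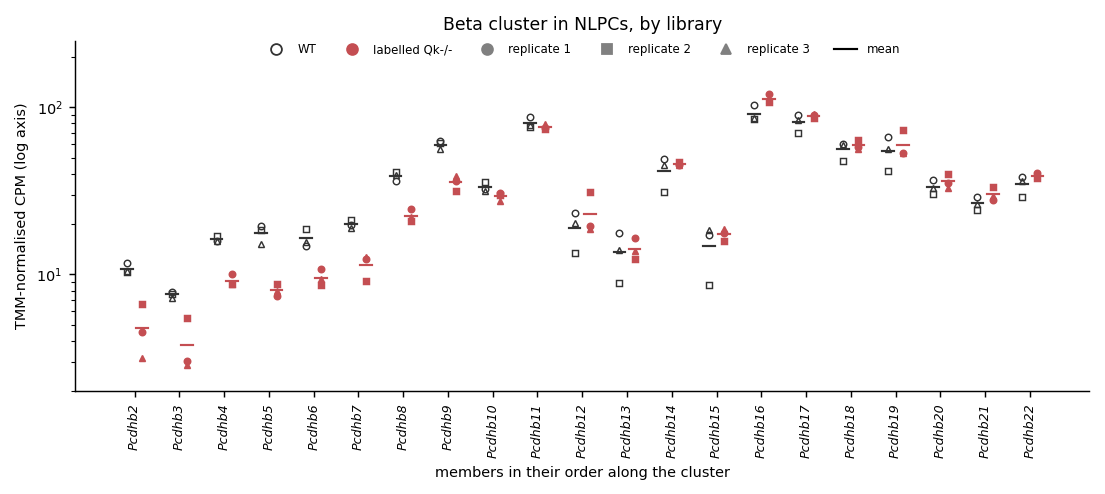
Levels in CPM, on a log axis, of the 21 tested beta genes in each NLPC library, in order along the cluster, with a point for each library and a short line at each group mean. From Pcdhb2 to Pcdhb9 every library labelled Qk-/- lies below every WT library, and from Pcdhb11 onwards the groups lie at like levels, with Pcdhb16 slightly higher in the deleted group.

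Past Pcdhb9 no beta gene of NLPCs was called. The log2 fold changes from Pcdhb10 to Pcdhb22 ranged from −0.18 to 0.30 with a median of 0.13, or −0.04 without WT library 2, while the 8 genes of the stretch had a median of −0.81, beside 0.04 over all 20371 genes tested. Pcdhb10 itself had 32.3, 35.9 and 31.6 CPM in WT and 30.7, 30.0 and 27.5 CPM in the deleted group (−0.18 ± 0.11, adjusted p = 0.336), so that its groups still did not overlap. Pcdhb16, the highest beta gene in CPM, had 104, 84.8 and 86.0 CPM in WT and 120, 107 and 110 CPM in the deleted group, which do not overlap (0.30 ± 0.11, adjusted p = 0.119). Within each library, where scaling has no part, the reads on Pcdhb2 to Pcdhb9 were 0.289, 0.389 and 0.305 of those on Pcdhb10 to Pcdhb22 in WT and 0.173, 0.154 and 0.171 of them in the deleted group. The summed beta level hardly shows it, at 737, 752 and 721 CPM in the deleted group. In the lens the same ratio was 0.271, 0.174 and 0.146 in Ctrl and 0.246, 0.255 and 0.218 in Qk-iCKO lenses, with overlap. Among the 50 tested genes that lie nearest to the mouse clusters, 3 were called higher and 3 lower in NLPCs, with a median of 0.08. Of all genes tested there, 4.74% were called higher and 5.96% lower. In the lens 7 of the 50 nearest were called higher and 2 lower, with a median of −0.0053. Of all genes tested in the lens, 8.38% were called higher and 3.88% lower.

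**Figure D3:**
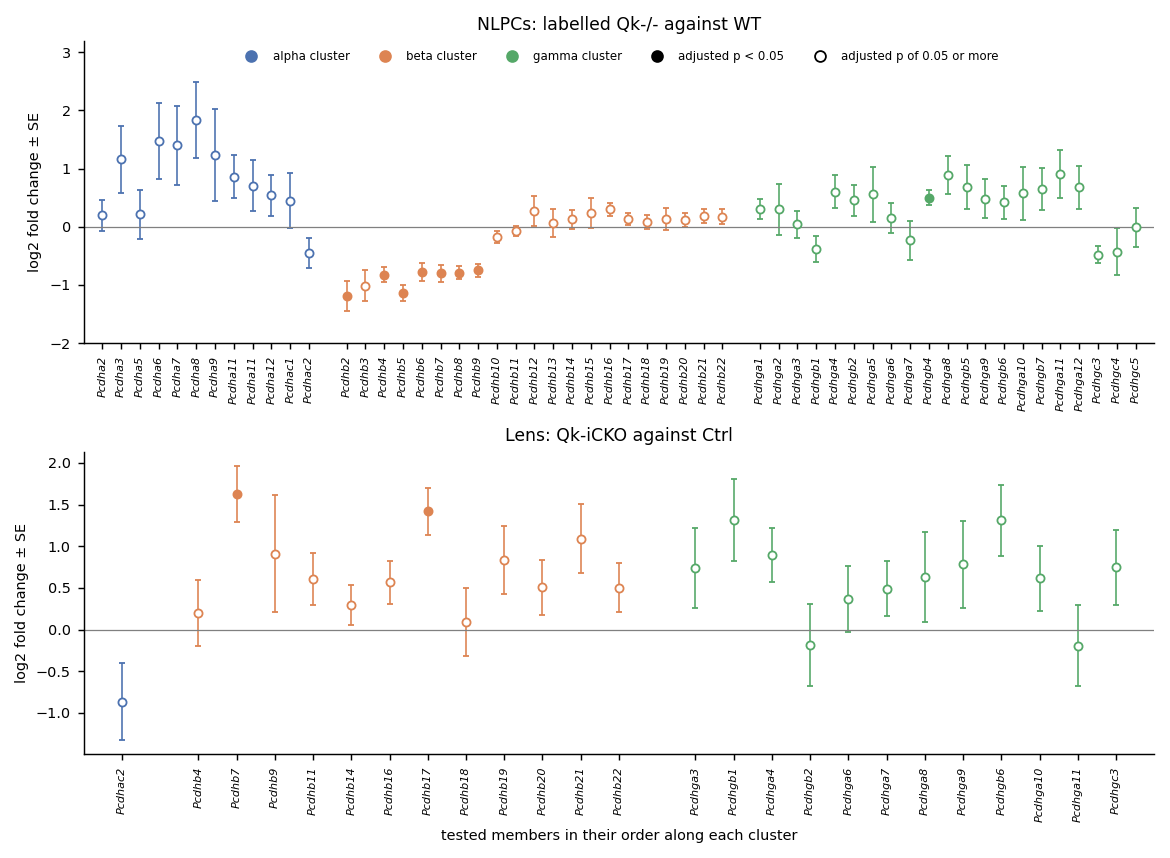
Log2 fold changes ± SE of deleted over control for the tested members in NLPCs, upper panel, and in the lens, lower panel, in order along each cluster, with filled points for an adjusted p under 0.05. The run of 7 filled beta points in NLPCs lies between −1.19 and −0.75, and the 2 filled points of the lens lie at 1.63 and 1.42.

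Fewer genes were called in the gamma and alpha clusters of NLPCs, 1 of 21 gamma and 0 of 12 alpha genes tested, where 10.7% of all genes were. Of the 21 gamma genes, Pcdhgb4 rose from 46.5, 34.9 and 43.6 CPM in WT to 60.01, 62.0 and 55.001 CPM in the deleted group, without overlap (0.50 ± 0.13, adjusted p = 0.0429). With the replicate number as a block its adjusted p was 0.0570, and it was called in 6 of 13 settings, with adjusted p values of 0.00230 to 0.172, but not without any single WT library or without library 1 or 3 of the deleted group. Pcdhgc3, which promotes dendrite growth through Axin1 in cortical neurons and is the most abundant gamma gene of NLPCs, had 408, 317 and 418 CPM in WT and 310.3, 227 and 282 CPM in the deleted group. The groups did not overlap by a narrow margin, and the difference missed the threshold (−0.48 ± 0.15, adjusted p = 0.0786) but passed it with the replicate number as a block (−0.48, adjusted p = 0.0167) and in DESeq2 (adjusted p = 0.0128), over a range of 0.0128 to 0.316. Pcdhgc3 took 74.8 to 79.2% of all gamma reads in WT libraries and 59.8 to 66.4% in the deleted group. Pcdhgc4, the C-type gene that neurons need for survival, had 3.86, 2.39 and 4.06 CPM against 3.18, 1.23 and 3.205 CPM (−0.43 ± 0.41, adjusted p = 0.543). Pcdhgc5 had 7.03, 2.81 and 7.41 CPM in WT and 5.67, 5.81 and 5.70 CPM in the deleted group, where WT library 2 was the low one, and its log2 fold change of −0.01 ± 0.34 (adjusted p = 0.986) took either sign in other settings. Over the gamma cluster 16 of 21 genes lay above 0 with a median of 0.46, or 14 of 21 with a median of 0.22 without WT library 2, and 5 of 21 had the deleted group all above WT, against 15.9% of all genes tested. WT library 2, the shallowest of its group, was the lowest library in 32 of the 54 tested members of all clusters.

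No alpha gene was called in NLPCs by edgeR, 2 were higher at an unadjusted p under 0.05, and DESeq2 called 1, Pcdha8. Of the alpha genes 11 of the 12 tested lay above 0 with a median of 0.78, which was 0.43 without library 2 of the deleted group. Pcdhac2, a C-type alpha gene that serves serotonergic axons, had 5.66, 4.84 and 6.17 CPM in WT and 3.25, 5.50 and 3.54 CPM in the deleted group, with overlap through library 2 of the latter (−0.45 ± 0.25, adjusted p = 0.300). Without that library its difference was −0.71 with an adjusted p of 0.0317, over a range of 0.0317 to 0.607 in all settings. Pcdhac1, the other C-type alpha gene, had 0.9504, 0.969 and 0.597 CPM in WT and 1.27, 1.196 and 0.961 CPM in the deleted group (0.45 ± 0.48, adjusted p = 0.591). Pcdha8, singled out after its value was seen as the largest alpha difference, had 0.161, 0.236 and 0.393 CPM against 0.861, 1.16 and 0.843 CPM (1.84 ± 0.65, adjusted p = 0.119). Pcdha11 has 2 rows in the NLPC table with different identifiers, and both were kept.

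Brain cell markers differed between the NLPC groups. The 12 neuron markers summed to 1279 to 1353 CPM in WT and 1586 to 1720 CPM in the libraries labelled Qk-/-. Of these 12, 3 rose and 5 lay below 0, where 4.74% of all genes tested were called higher and 5.96% lower. The 6 neural stem cell markers summed to 2752 to 2910 CPM in WT and 2332 to 2640 CPM in the deleted group. All 6 lay below 0, and 1 was called lower. The 6 astrocyte markers summed to 6134 to 6409 CPM in WT and 3587 to 4301 CPM in the deleted group, with 2 lower and 1 higher, and the oligodendrocyte markers fell from 175 to 183 CPM to 72.2 to 87.3 CPM, with 3 of 5 lower. Their part in the beta stretch was not tested.

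Whether the deletion acted differently in the 2 mouse systems was tested as an interaction over 16675 genes, of which 8.53% were called. Of the 51 members tested 5 differed, a share near that of all genes, and these were all beta genes with a lower value in NLPCs than in the lens. Pcdhb7, which rose in the lens and fell in NLPCs, differed by −2.36 ± 0.34 on the log2 scale (adjusted p = 0.00132). Pcdhb17, which rose in the lens and had a value of 0.14 ± 0.11 in NLPCs, differed by −1.19 ± 0.26 (adjusted p = 0.0151). The remaining 3 rest on few lens reads. Pcdhb8 differed by −1.39 ± 0.39 (adjusted p = 0.0452) on 20 Ctrl and 29 Qk-iCKO reads, but with the replicate number as a block its adjusted p was 0.06495 and 4 members differed, and over all settings its adjusted p ranged from 0.00959 to 0.154. Pcdhb5 differed by −2.16 ± 0.61 (adjusted p = 0.0476) on 11 and 22 reads. Pcdhb3 differed by −4.53 ± 1.09 (adjusted p = 0.0233) on 1 read in all Ctrl lenses and 12 in all Qk-iCKO lenses, 7 of them in lens 1, and its fitted value depends on the prior count. The ratio of the pooled reads was 13.3, with an exact 95% counting interval of 1.97 to 570 that leaves out the spread between lenses. Tested in the lens alone by edgeR, with every gene of at least 1 count kept, its adjusted p was 0.113. Without Qk-iCKO lens 1 or without Ctrl lens 2 the number of members that differed was 2, without Qk-iCKO lens 3 it was 8, and without any other single library it was 3 to 5. The systems differ in tissue, in how the groups were made and in the table, and these cannot be told apart from the cell type.

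In HLE-B3 cells the gamma cluster, at chr5:140710081-140892542 in GRCh37, was lower after QKI knockout. Of 22 gamma genes 11 fell and none rose, where 16.3% of all genes tested were called lower and 17.0% higher, and the summed gamma level went from 78.0, 84.7 and 97.0 CPM in WT to 42.7, 54.6 and 42.7 CPM in QKI KO. The median log2 fold change was −0.87, beside −0.02 over all 19049 genes tested. In 12 of the 22 every QKI KO library lay below every WT library, as in 22.6% of all genes tested, and in none did every one lie above, as in 22.0%. At an unadjusted p under 0.05, 13 gamma genes were lower and none higher, beside 20.6 and 20.8% of all genes, and the 13 that DESeq2 called were all lower. All 22 were tested, so no filter stood between the cluster and these counts.

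The largest fall was that of PCDHGC5, the last C-type gene, from 1.89, 1.25 and 1.505 CPM in WT to 0.478, 0.434 and 0.218 CPM in QKI KO (−2.03 ± 0.40, adjusted p = 0.000726). PCDHGA4 went from 1.70, 2.07 and 2.12 CPM to 0.641, 0.507 and 0.451 CPM (−1.88 ± 0.32, adjusted p = 0.000208). PCDHGA8 went from 1.86, 2.02 and 1.81 CPM to 0.327, 0.869 and 0.423 CPM (−1.81 ± 0.37, adjusted p = 0.00118). None of the 3 overlapped between groups, and all 3 are lowly expressed. Among the abundant genes, PCDHGB5, whose printed promoter stretch is that of PCDHGB4, had 12.5, 12.8 and 13.0 CPM in WT and 3.44, 4.59 and 4.61 CPM in QKI KO, with the smallest adjusted p of the cluster (−1.60 ± 0.14, adjusted p = 1.78e-07). PCDHGC3 had 9.15, 14.2 and 15.7 CPM in WT and 5.54, 7.91 and 5.11 CPM in QKI KO (−1.07 ± 0.19, adjusted p = 0.000313). PCDHGA11, the highest gene of the cluster, had 17.8, 18.6 and 20.9 CPM in WT and 10.97, 13.8 and 11.5 CPM in QKI KO (−0.66 ± 0.11, adjusted p = 0.000165). These abundant genes did not overlap either, and PCDHGA11 showed the smallest fall of the 11.

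The other 5 that fell were PCDHGB6 (−1.58), PCDHGA7 (−1.52), PCDHGA9 (−1.50), PCDHGA12 (−1.18) and PCDHGB7 (−0.82). They and PCDHGB5 are named after their values were seen. PCDHGC4, the remaining C-type gene, had 0.367, 0.727 and 0.739 CPM in WT and 0.0819, 0.362 and 0.655 CPM in QKI KO, with overlap (−0.73 ± 0.64, adjusted p = 0.431). PCDHGB4 had 0.698, 1.03 and 0.989 CPM in WT and 0.368, 1.09 and 0.0546 CPM in QKI KO (−0.85 ± 0.65, adjusted p = 0.365). It was called lower in 1 of 12 settings, the one without QKI KO library 2. The number of gamma genes called stayed between 11 and 14 in every setting, with 13 in DESeq2, and 10 of the 11 were called in 13 of 13 settings, PCDHGA7 in 12.

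**Figure D4:**
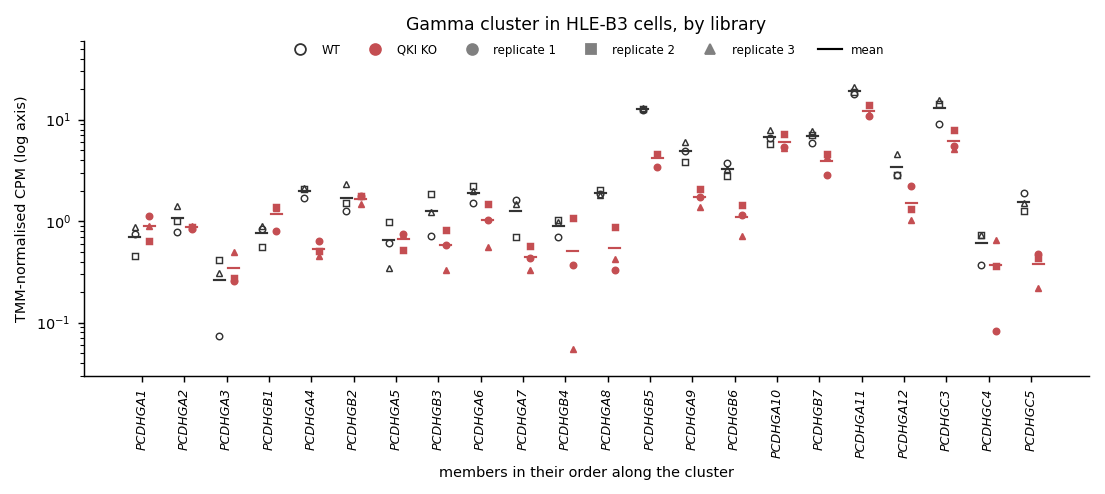
Levels in CPM, on a log axis, of the 22 gamma genes in each HLE-B3 library, in order along the cluster, with a point for each library and a short line at each group mean. The groups overlap from PCDHGA1 to PCDHGB1 and at PCDHGB2, PCDHGA5, PCDHGB3, PCDHGB4, PCDHGA10 and PCDHGC4. They separate at PCDHGA4 and at the other genes from PCDHGA6 on.

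The genes that fell were mostly in the later part of the cluster. Of the 7 genes from PCDHGA1 to PCDHGA5, 1 fell, PCDHGA4, with a median log2 fold change of 0.04 that ranged from −0.06 to 0.27 with a library left out, and of the 15 from PCDHGB3 to PCDHGC5, 10 fell, with a median of −1.13 and all 15 below 0. Per library, the reads on the later part were 11.9, 11.1 and 10.7 times those on the earlier part in WT and 5.91, 8.13 and 5.78 times in QKI KO. This division was made after the values were seen. The earlier genes are also the scarcer ones, with 6.04 to 8.26 CPM in all in WT against 71.98 to 88.8 CPM for the later ones. Within the later part PCDHGA10 stood out, with 6.54, 5.77 and 7.91 CPM in WT and 5.35, 7.25 and 5.30 CPM in QKI KO (−0.18 ± 0.17, adjusted p = 0.474), between neighbours that fell on both sides.

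The beta cluster of HLE-B3 summed to 7.43, 7.35 and 7.65 CPM in WT and 5.12, 4.20 and 4.41 CPM in QKI KO. Of 8 genes tested, 2 fell and none rose, where 16.3% of all genes tested were called lower and 17.0% higher. PCDHB13 had 0.967, 1.33 and 1.32 CPM in WT and 0.150, 0.420 and 0.573 CPM in QKI KO (−1.66 ± 0.47, adjusted p = 0.0114, called in 13 of 13 settings). PCDHB14, the highest beta gene of the line, had 1.24, 1.95 and 2.29 CPM in WT and 1.023, 0.782 and 0.997 CPM in QKI KO (−0.96 ± 0.32, adjusted p = 0.0274, called in 8 of 13 settings). Neither overlapped between groups, and without any 1 of WT library 3 and the 3 QKI KO libraries only 1 beta gene was called. PCDHB16 was the single tested beta gene above 0, with 0.367, 0.288 and 0.641 CPM in WT and 1.04, 0.666 and 0.751 CPM in QKI KO (0.92 ± 0.47, adjusted p = 0.155). The alpha cluster was nearly silent, since 11 of its 15 genes had no read in any library and no gene had more than 12 reads in 1 library.

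**Figure D5:**
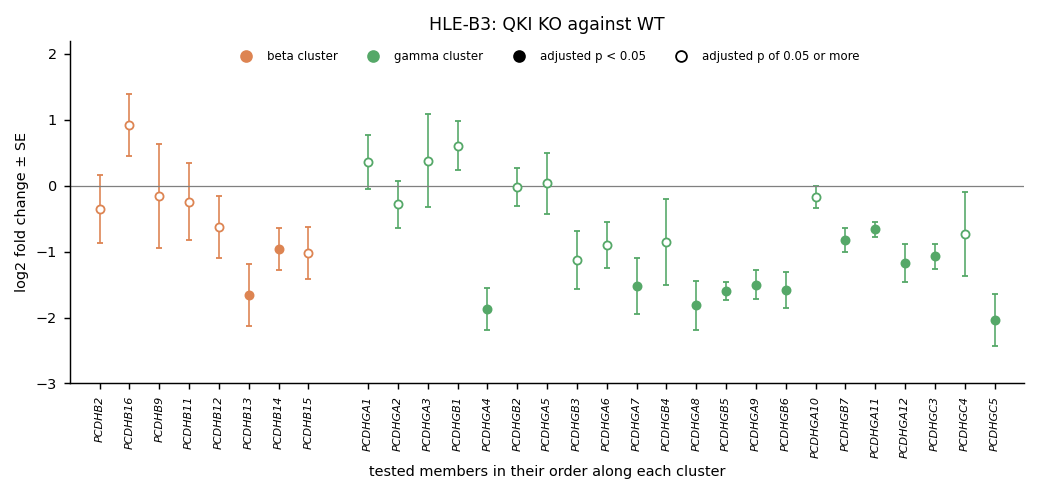
Log2 fold changes ± SE of QKI KO over WT for the 8 tested beta and 22 gamma genes of HLE-B3 cells, in order along each cluster, with filled points for an adjusted p under 0.05. Filled points lie between −2.03 and −0.66, and PCDHB16 is the highest open point at 0.92.

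Of the 50 tested genes nearest to the human clusters, 5 were called higher and 12 lower, where 17.0 and 16.3% of all genes were, with a median of −0.21, and the median over the 920 tested genes of chromosome 5 was −0.17. Of a list of 15 flanking genes in conserved order, 4 fell and 1 rose. Among them ARAP3 fell by 0.87 on the log2 scale and ZMAT2 rose (0.29). Markers of other cells moved as well. The neuron markers went from 34.3 to 38.0 CPM in WT to 17.4 to 21.5 CPM in QKI KO, with 3 of 12 at 0 in every library. Of them 4 of 4 tested were lower, where 16.3% of all genes tested were called lower and 17.0% higher. The neural stem cell markers went from 97.6 to 111 CPM to 43.0 to 45.7 CPM, with 2 of 3 tested lower. The mesenchyme markers went from 3791 to 3868 CPM to 1836 to 2158 CPM, with 3 lower and 1 higher. The lens markers went from 491 to 580 CPM to 879 to 1020 CPM, with 3 of 6 tested lower and 1 higher. The part of these in the gamma values was not tested.

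Factors known to act on the promoters of the clusters were followed as a list of 26 genes. In the lens 1 of 25 tested was called, where 12.3% of all genes tested were, namely Tet2, a DNA demethylase (0.63 ± 0.16, adjusted p = 0.0389). In NLPCs 1 of 26 was called, where 10.7% of all genes were, Tet2 again but lower (−0.35 ± 0.09, adjusted p = 0.0449). Both shares lie below those of all genes. In HLE-B3 cells 18 of 26 were called, 6 higher and 12 lower, where 33.3% of all genes tested were called. Ctcf, the insulator protein that binds most of these promoters, was not called in the lens (0.18 ± 0.16, adjusted p = 0.503), in NLPCs (−0.29 ± 0.09, adjusted p = 0.0910) or in HLE-B3 cells (−0.06 ± 0.05, adjusted p = 0.421). RAD21, a cohesin subunit, rose in HLE-B3 cells from 253 ± 9.90 to 323 ± 21.9 CPM (0.35 ± 0.06, adjusted p = 0.000182), and WAPL, which releases cohesin from DNA, fell slightly (−0.16 ± 0.05, adjusted p = 0.0325). NIPBL, the cohesin loader, fell from 352 ± 39.9 to 262 ± 25.3 CPM (−0.42 ± 0.08, adjusted p = 0.000498). DNMT3B, the methyltransferase of these promoters, fell from 16.6 ± 1.03 to 12.2 ± 0.85 CPM (−0.45 ± 0.10, adjusted p = 0.00247), and TET3, a demethylase, fell by as much (−0.45 ± 0.09, adjusted p = 0.00111). The silencing factors SMCHD1 (−0.19 ± 0.06, adjusted p = 0.0156) and SETDB1 (−0.16 ± 0.06, adjusted p = 0.0453) fell slightly. In the mouse systems Rad21, Wapl, Smchd1, Setdb1 and Dnmt3b were not called, with values from −0.32 for Setdb1 in NLPCs to 0.65 for Rad21 in the lens, and Dnmt3b was too low to test in the lens.

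Proteins that bind clustered protocadherins or carry their signal formed a list of 18 genes. In the lens 4 of 17 tested were called, where 12.3% of all genes were, and of these Ptk2b, a kinase that gamma protocadherins hold inactive, went from 0.197 ± 0.146 to 4.46 ± 4.40 CPM (4.47 ± 0.97, adjusted p = 0.0255), Nlgn1, a synaptic partner, rose (2.01 ± 0.43, adjusted p = 0.0246) and Abi2, of the WAVE complex, fell (−1.15 ± 0.17, adjusted p = 0.00722). Ptk2b is also expressed in leukocytes, and the macrophage markers rose in these lenses, but their part in the Ptk2b value was not tested. In NLPCs 6 of 18 were called, where 10.7% of all genes were, with Ptk2b higher (2.61 ± 0.57, adjusted p = 0.0267) and Ret, a receptor bound by protocadherins, lower (−0.94 ± 0.17, adjusted p = 0.0112), as was Cyfip1, another WAVE complex gene (−0.81 ± 0.11, adjusted p = 0.00311). In HLE-B3 cells 9 of 17 were called, where 33.3% of all genes were, with NLGN1 higher (2.72 ± 0.23, adjusted p = 1.25e-07) and PTK2B (−0.53 ± 0.13, adjusted p = 0.00477) and CYFIP1 (−0.50 ± 0.06, adjusted p = 7.58e-06) lower. Ptk2, the focal adhesion kinase, and Adam10, the protease that cuts gamma protocadherins, were called in HLE-B3 cells alone (0.16 ± 0.06, adjusted p = 0.0380 and 0.23 ± 0.06, adjusted p = 0.00435), and FYN, a kinase, was lower there (−0.22 ± 0.08, adjusted p = 0.0496). Whether these partner genes differed between systems was not tested.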

How the data were processed

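RNA-seq of 18 libraries was analysed. Per the study's methods, stranded paired-end reads were aligned by the authors with STAR 2.6.1b to mm10 or hg19 and counted per gene with HTSeq 0.11.0, and the submitters' processing notes also name HISAT2 2.0.4 and featureCounts. What the authors deposited for each system is a table of unnormalized read counts. How reads on exons or paralogs shared by several members were counted is not given in the sources used here. The genes counted in the lens and NLPCs included no member with the symbol Pcdha10, and those in the lens none with the symbol Pcdhgc4.

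Groups and replicate numbers are those of the labels. In each system genes kept by filterByExpr (minimum count 10, minimum total 15) were scaled by TMM and compared between the 2 groups, with no covariate, by edgeR's quasi-likelihood F-test (version 4.0.16, R 4.3.3), and p-values were adjusted by Benjamini-Hochberg over all genes tested. SEs are the fold change over the root of the test statistic. The coefficient of variation was 0.26 in the lens, 0.411 in NLPCs and 0.168 in HLE-B3. With 3 libraries against 3, precision rests on the replicate spread. The interaction was fitted on genes counted in both mouse tables. Alternatives were RLE factors, total counts alone, both filters named in the closing section, each library left out, a block for the replicate number and DESeq2 1.42.0. The steps were tested on simulated data.

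After group means were subtracted, libraries with the same replicate number correlated at 0.233, 0.133 and 0.523 in the lens, at 0.123, 0.32 and 0.145 in NLPCs and at 0.061, 0.057 and −0.049 in HLE-B3. Correlations between libraries of unlike number are not given here, and the sample titles name no pairs, so whether the numbers pair libraries is not known. The main test was unpaired in every system, and the block for the replicate number is an alternative to it.

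The members and lists were chosen with earlier results of these data known. Most genes were named by rule, namely in each system and cluster the called members (above 8, the 3 largest rises and falls), the highest member in CPM and the C-type members, and of the other lists the fixed genes and up to 3 of the largest called changes. Some were described outside this rule, among them Pcdhb3 and Pcdhb10 in NLPCs and PCDHB16, PCDHGB4 and PCDHGA10 in HLE-B3. Gene positions and promoter windows come from annotations of GRCm38 and GRCh37.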

Additional observations from a re-analysis of the deposited data

Results flagged for a closer look

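Among 51 members tested, the deletion effects of 5, all beta genes, differed between NLPCs and the lens, by the test of the interaction of deletion and system (edgeR's quasi-likelihood test with Benjamini-Hochberg adjustment), which called 8.53% of all 16675 genes tested. The effect in NLPCs minus that in the lens was −2.36 for Pcdhb7 (adjusted p = 0.00132), −1.19 for Pcdhb17 (adjusted p = 0.0151), −4.53 for Pcdhb3 (adjusted p = 0.0233), −1.39 for Pcdhb8 (adjusted p = 0.0452) and −2.16 for Pcdhb5 (adjusted p = 0.0476), all on the log2 scale. All 5 were negative. With the replicate number as a block 4 members differed, and the adjusted p of Pcdhb8 was 0.06495. Pcdhb3, Pcdhb8 and Pcdhb5 had too few reads in the lens to pass the main filter there.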

How the results depend on the processing

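Counts of members called moved as follows. In the lens the beta count of 2 was 1 with only genes of at least 10 counts in every sample and 0 to 3 with each library left out, the gamma count 0 to 1, the regulators 0 with total counts alone and 0 to 1, the partners 2 with at least 10 counts and 1 to 3, and all genes called 884 with total counts alone (86.9% of them higher, against 68.4%), 2521 with every gene of at least 1 count, and 581 to 1709. In NLPCs the alpha count of 0 was 1 with at least 10 counts and in DESeq2 and 0 to 1 with a library left out, the beta count 4 to 9, and the gamma count 0 with total counts alone, 2 with every gene of at least 1 count and in DESeq2, and 0 to 1. The NLPC regulators were 0 with total counts alone, 2 with at least 10 counts, 4 in DESeq2 and 0 to 1, the partners 2 to 7, and all genes 3841 in DESeq2 and 681 to 3797, the most without library 2 labelled Qk-/-. In HLE-B3 cells the beta count of 2 was 3 with total counts alone, with at least 10 counts and in DESeq2, each adding PCDHB15, and was 1 to 2 and the regulators 11 to 15 with a library left out. The 5 members that differed between lens and NLPCs became 1 with at least 10 counts, 8 in DESeq2 and 2 to 8 with a library left out. Pcdhgc5 in NLPCs changed sign to 0.0081 with RLE factors, 0.0215 with total counts alone, 0.0323 with at least 10 counts, 0.0095 in DESeq2, 0.0933 with the replicate block, and −0.3499 to 0.1985 with a library left out. The cause was not tested for these.

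Paired by replicate number, 8 beta genes were called in NLPCs, Pcdhgb4 was lost and Pcdhgc3 gained, and Pcdhb8 no longer differed between the mouse systems (adjusted p = 0.06495). In the lens the block called Pcdhb7 and Pcdhb17 as before. The lens libraries were the shallowest, and the members left untested there had at most 26 reads in any library. Of these, Pcdhb12, with 11 Ctrl and 48 Qk-iCKO reads, was called with every gene of at least 1 count (2.16, adjusted p = 0.0215) and without Qk-iCKO lens 3 (2.50, adjusted p = 0.0220), over a range of 0.0215 to 0.144 in the 5 settings that tested it.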

Other observations

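Protocadherins outside the clusters, of the delta group, are single genes with their own promoters, and several moved. In NLPCs 3 of 9 tested fell, where 10.7% of all genes tested were called, Pcdh7 from 26.0 ± 0.38 to 5.91 ± 0.83 CPM (−2.14 ± 0.14, adjusted p = 0.000242), Pcdh10 from 94.95 ± 2.32 to 25.6 ± 4.10 CPM (−1.89 ± 0.13, adjusted p = 0.000254) and Pcdh11x from 97.3 ± 2.94 to 43.6 ± 1.94 CPM (−1.16 ± 0.08, adjusted p = 0.000331). In HLE-B3 cells 5 of 6 tested were called, 2 higher and 3 lower, where 33.3% of all genes were. The human genes of the same names as the first pair were the higher ones, PCDH7 from 19.9 ± 0.29 to 72.8 ± 1.67 CPM (1.87 ± 0.07, adjusted p = 4.46e-12) and PCDH10 from 11.6 ± 2.09 to 39.3 ± 2.97 CPM (1.76 ± 0.11, adjusted p = 4.22e-09), while PCDH1 fell from 1.49 ± 0.12 to 0.485 ± 0.16 CPM (−1.61 ± 0.36, adjusted p = 0.00251). The difference between the 2 systems was not tested, since they are of different species. In the lens 1 of 7 was called, where 12.3% of all genes were, namely Pcdh18, which fell from 5.41 ± 0.87 to 1.84 ± 0.58 CPM (−1.58 ± 0.30, adjusted p = 0.0165).

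Classical cadherins, which bind catenins as the clustered protocadherins do not, were followed beside them. N-cadherin, CDH2, fell in HLE-B3 cells from 780.5 ± 19.4 to 463 ± 6.196 CPM (−0.75 ± 0.05, adjusted p = 3.97e-09), and Cdh2 was not called in the lens (−0.32 ± 0.13, adjusted p = 0.159) or NLPCs (0.12 ± 0.08, adjusted p = 0.413). E-cadherin was not called in the lens (0.05 ± 0.21, adjusted p = 0.896) or in HLE-B3 cells (0.10 ± 0.96, adjusted p = 0.952), where it was near 0. Cdh11 fell in NLPCs (−2.40 ± 0.13, adjusted p = 0.000154) and in HLE-B3 cells (−0.87 ± 0.06, adjusted p = 4.43e-09). In the lens Ctnna2, a neural alpha-catenin, fell from 140.1 ± 6.46 to 35.3 ± 9.90 CPM (−1.99 ± 0.22, adjusted p = 0.00214).

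Some members overlap other annotated genes that lie on the opposite strand and have counts of their own. The reads were stranded, and whether the counting used the strand is not given in the sources used here. Exons of Pcdhgc3 are overlapped by the antisense gene BC037039, with 728 reads in all NLPC libraries, and those of Pcdhb12 by the antisense Gm37446, with 613. Human PCDHB5 overlaps ENSG00000280029 on the other strand, with 65 reads.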
